A study of Arabidopsis thaliana with 9 samples.

Results

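The 7 genes described here encode tryptophan biosynthesis enzymes, though not all of them, in Arabidopsis thaliana seedlings. These genes were chosen by locus identifier for the enzyme each encodes. They are ASA1 (AT5G05730), ASB1 (AT1G25220), PAT1 (AT5G17990), IGPS (AT2G04400), TSA1 (AT3G54640), TSB1 (AT5G54810) and TSB2 (AT4G27070). All 7 were found among the 33602 genes of the count table, and all 7 passed the filter on low counts, which left 20986 genes. The study sequenced polyadenylated RNA from whole seedlings 6 days old, grown in liquid MS medium with sucrose, in 3 groups of 3 libraries. The JA WT group was wild-type Col-0 given 5 µM jasmonic acid for 3 h. The mock lhp1 group was the lhp1 mutant, and the mock WT group was Col-0, both given ethanol diluted 5000-fold for 3 h. LHP1 (LIKE HETEROCHROMATIN PROTEIN 1) binds the repressive histone mark placed by Polycomb proteins. The mutant was represented by 1 allele, whose number stands only in the column names of the table. The treatment label separates JA from mock, while the treatment protocol has the same JA wording for every sample.

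Plants make tryptophan in plastids from chorismate, the end product of the shikimate pathway. Anthranilate synthase, made of alpha and beta subunits, takes the first step and is the enzyme that tryptophan inhibits. A phosphoribosyltransferase, an isomerase and indole-3-glycerol phosphate synthase follow, and tryptophan synthase, again of alpha and beta subunits, releases indole and joins it to serine. In Arabidopsis and its relatives tryptophan is also the precursor of indole glucosinolates, of the phytoalexin camalexin and of auxin. Jasmonate is a wound and defence hormone whose transcription factor MYC2 binds G-box sequences and their variants. JAZ repressors hold MYC2 inactive until they are degraded.

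LHP1 itself had a mean of 9.43 CPM (a gene's reads scaled to a library size of 1e+06, with TMM factors) in mock lhp1 libraries and 17.8 CPM in mock WT libraries, a log2 fold change of -0.91 ± 0.14 (SE; edgeR quasi-likelihood test, adjusted p = 0.00116), so transcript reads remained in the mutant. The jasmonate markers JAZ10 and VSP2 were 5.16 and 5.82 log2 units higher in JA WT than in mock WT. Without jasmonate, VSP2 was also called higher in mock lhp1 than in mock WT, by 2.02 log2 units (means of 3.83 and 0.918 CPM). JAZ10 was not called there (3.24 and 2.91 CPM). The low VSP2 values of mock WT ran from 0.264 to 1.99 CPM and averaged 0.383 CPM without replicate 2. The VSP2 call was not run in the alternative settings. Library totals ranged from 18081553 to 31454984 counts. LHP1 was lowest of its group in mock WT replicate 2, at 13.9 CPM, against a mean of 19.7 CPM in the others. That library also stood apart in flower markers. It had 122 CPM summed over AG, AP3, PI and SEP3, against 28.1 and 29.6 CPM in the other mock WT libraries. The same sum was 22.4 to 27.1 CPM in JA WT and 205 to 208 CPM in mock lhp1 libraries. Summed over 3 leaf markers, mock lhp1 libraries had 9348 to 9477 CPM and mock WT libraries 15990 to 22370 CPM. In LHP1, flower markers and leaf markers, mock WT replicate 2 lay between mock lhp1 and the other mock WT libraries, its leaf sum being 15990 CPM. The 4 root markers CASP1, CASP2, COBL9 and EXPA7 summed to 62.4 CPM in mock WT replicate 3, against 99.2 and 96.2 CPM in replicates 1 and 2. Their sum was 74.9 to 76.8 CPM in JA WT and 103 to 126 CPM in mock lhp1 libraries. CASP1, CASP2 and COBL9 had higher means in mock lhp1 than in mock WT, but EXPA7 did not (23.1 and 24.7 CPM). The part of these differences in the results was not tested. In RNA from whole seedlings, fewer cells of a type and less RNA per cell cannot be told apart.

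After jasmonate all 7 genes rose, by between 2.26-fold for PAT1 and 3.28-fold for TSA1. Among all 20986 genes tested, 8.62% were called higher in this comparison (edgeR quasi-likelihood test, adjusted p below 0.05). The median log2 fold change of the 7 was 1.44, against 0.00045 over all genes tested. In each of the 7 every JA WT library lay above every mock WT library, as did 16.2% of all genes. In the lhp1 mutant without jasmonate, TSB2 and, less securely, ASB1 were higher than in mock WT, and the other 5 genes did not pass the test, where 11.1% of all genes were called higher. The summed level of the 7 genes was 1358 ± 58.2 CPM in JA WT, 513.9 ± 4.32 CPM in mock lhp1 and 506.1 ± 56.6 CPM in mock WT libraries (SD, n = 3 each). That was 0.124%, 0.0565% and 0.0504% of all counts in the JA WT, mock lhp1 and mock WT groups.

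**Figure D1:**
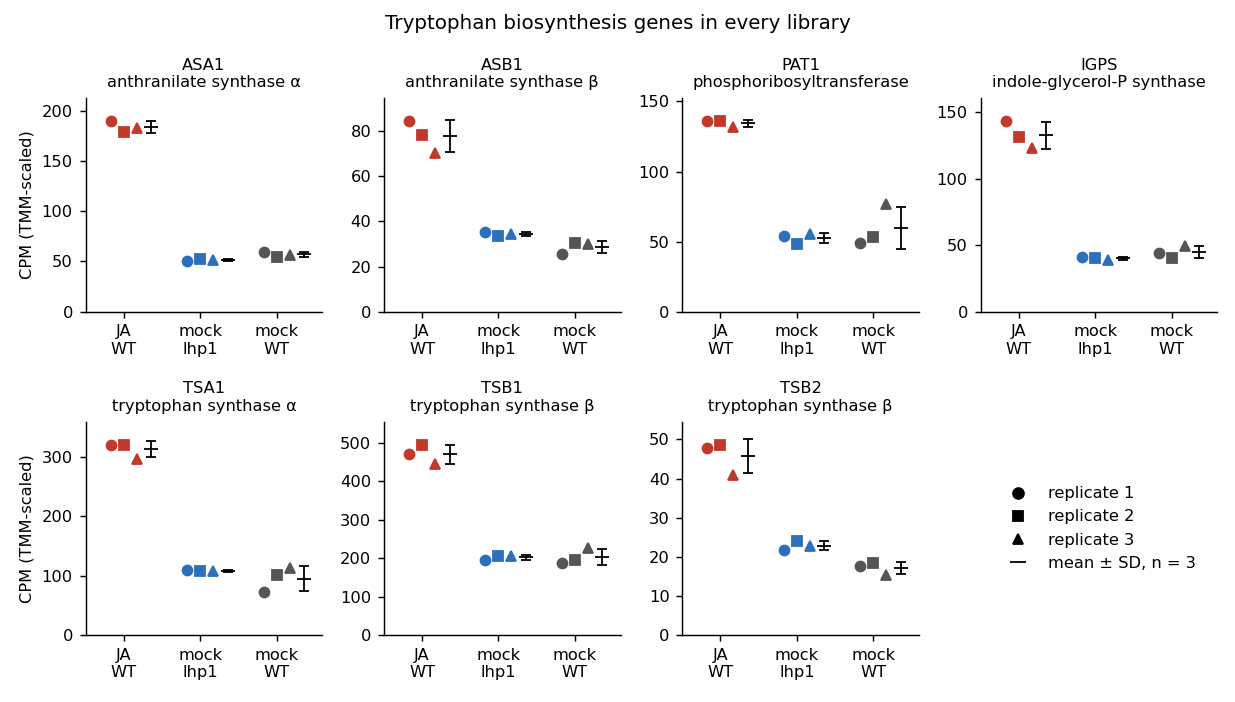
Each panel plots 1 tryptophan biosynthesis gene in TMM-scaled CPM from 0, with 1 point per library for JA WT, mock lhp1 and mock WT, and a bar at each group's mean. The 3 JA WT points lie above the other 6 in every panel, and the mock WT points of TSA1 run from 72.4 to 113 CPM.

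The 250 bases before the annotated start of transcription were read from the RefSeq genome TAIR10.1 for each gene and searched on both strands for 3 hexamers: the G-box CACGTG, its variant CACATG and the T/G-box AACGTG. MYC-type factors are known to bind such sequences. At least 1 of the 3 occurred in 4 of the 7 windows, and in 23.0% of 26711 such windows over the genome. The G-box alone occurred in 6.58% of windows, the variant CACATG in 11.2% and the T/G-box in 7.60%. The windows of ASA1, ASB1 and IGPS, each with a match, are printed 5′ to 3′ on the gene's strand with matches of either strand in capitals, followed by those of TSB2, a gene that rose after jasmonate without a match, and ASA2, the relative of ASA1 that did not pass the test there. ASA1 (chr5:1722934-1723183, minus strand), ASB1 (chr1:8839610-8839859, minus), IGPS (chr2:1530898-1531147, plus), TSB2 (chr4:13586018-13586267, plus) and ASA2 (chr2:12693484-12693733, plus) read as follows.
ASA1: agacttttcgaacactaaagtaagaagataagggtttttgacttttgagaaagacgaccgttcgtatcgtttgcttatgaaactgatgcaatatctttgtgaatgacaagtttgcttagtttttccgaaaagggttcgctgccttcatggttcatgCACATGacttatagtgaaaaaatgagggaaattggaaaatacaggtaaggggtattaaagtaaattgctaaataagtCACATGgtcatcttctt
ASB1: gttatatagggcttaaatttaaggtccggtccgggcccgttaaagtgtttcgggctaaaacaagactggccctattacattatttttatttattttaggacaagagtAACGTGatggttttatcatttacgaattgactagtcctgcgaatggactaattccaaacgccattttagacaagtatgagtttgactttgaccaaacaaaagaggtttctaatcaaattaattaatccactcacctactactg
IGPS: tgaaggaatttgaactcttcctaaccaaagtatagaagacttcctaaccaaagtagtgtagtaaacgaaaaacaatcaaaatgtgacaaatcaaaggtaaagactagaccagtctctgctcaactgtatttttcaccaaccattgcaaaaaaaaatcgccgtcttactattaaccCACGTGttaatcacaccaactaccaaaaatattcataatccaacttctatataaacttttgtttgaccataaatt
TSB2: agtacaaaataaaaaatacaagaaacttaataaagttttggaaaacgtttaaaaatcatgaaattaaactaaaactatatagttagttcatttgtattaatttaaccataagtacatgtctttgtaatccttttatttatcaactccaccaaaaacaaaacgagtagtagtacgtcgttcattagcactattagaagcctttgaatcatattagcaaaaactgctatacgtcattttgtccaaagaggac
ASA2: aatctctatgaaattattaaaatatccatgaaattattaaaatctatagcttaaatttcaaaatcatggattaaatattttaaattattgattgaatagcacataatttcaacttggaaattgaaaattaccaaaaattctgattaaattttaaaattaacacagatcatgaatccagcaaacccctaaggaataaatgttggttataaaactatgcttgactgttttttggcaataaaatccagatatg

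The ASA1 window held CACATG 94 to 89 and again 17 to 12 bases before the start. The IGPS window held the only G-box of the 7, at 75 to 70 bases, and the ASB1 window held AACGTG at 143 to 138 bases. In the 7 windows no match of one hexamer overlapped a match of another. None of the 3 hexamers occurred in the windows of PAT1, TSA1 and TSB2, though these genes also rose after jasmonate. The GCC-box GCCGCC, the element of ethylene-response factors, was in none of the 7 windows and in 1.85% of windows over the genome. Of the 13 related genes listed with the pathway, 1 window, that of TSB3, held any of the 3 hexamers.

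ASA1, on chromosome 5 at 1719533 to 1722933 (TAIR10.1, minus strand), encodes the alpha subunit of anthranilate synthase, which carries the catalytic site and the site where tryptophan inhibits. It had 190, 179 and 183 CPM in the JA WT libraries, 50.3, 52.7 and 51.9 CPM in mock lhp1, and 59.9, 54.4 and 56.6 CPM in mock WT. The JA WT libraries were far above the other 6, and the 3 mock lhp1 libraries were each slightly below all mock WT libraries, as 23.1% of all genes were. The log2 fold change was 1.69 ± 0.06 in JA WT over mock WT (SE; edgeR adjusted p = 1.80e-08) and -0.14 ± 0.06 in mock lhp1 over mock WT, which did not pass (edgeR adjusted p = 0.115). Among the 20986 genes ASA1 ranked 20 by p in the jasmonate comparison.

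Its relative ASA2 (AT2G29690), a second alpha subunit gene, had 53.2, 49.0 and 49.2 CPM in JA WT, 35.5, 37.8 and 38.03 CPM in mock lhp1, and 42.6, 41.9 and 47.6 CPM in mock WT. The groups were close and did not overlap. ASA2 did not pass the test after jasmonate, at 0.20 log2 units (edgeR adjusted p = 0.0872; called at 0.24 without mock WT replicate 3, 0.0374), and was called lower in mock lhp1, at -0.25 (edgeR adjusted p = 0.0265), a call lost with total-count scaling (0.304) and in the edgeR fits that left out a mock lhp1 replicate or mock WT replicate 3 (adjusted p 0.0595 to 0.102). Per exon length (RPKM), ASA1 made up 79.8% ± 0.312 of the ASA1 and ASA2 sum in JA WT, 60.2% ± 0.463 in mock lhp1 and 58.4% ± 2.02 in mock WT (SD, n = 3 each). The shares in JA WT were all above those of the mock libraries.

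ASB1, on chromosome 1 at 8836835 to 8839609 (minus strand), encodes the beta subunit, the glutamine amidotransferase that hands ammonia to the alpha subunit. It had 84.6, 78.5 and 70.4 CPM in JA WT, 35.2, 33.7 and 34.3 CPM in mock lhp1, and 25.7, 30.6 and 29.8 CPM in mock WT. The groups did not overlap in either comparison, with mock lhp1 slightly above mock WT. ASB1 rose by 1.44 ± 0.09 log2 units after jasmonate (SE; edgeR adjusted p = 5.74e-07). In mock lhp1 it was 0.26 ± 0.09 log2 units higher than in mock WT, which only just passed (edgeR adjusted p = 0.0499). That call held in 6 of 16 alternative settings, the adjusted p over all 16 running 0.0102 to 0.137. It was lost, among others, without any 1 of the mock lhp1 libraries (edgeR adjusted p 0.137, 0.10 and 0.114 without replicates 1, 2 and 3), without JA WT replicate 2 (0.0699), and without mock WT replicate 1 (0.131) or 3 (0.0691).

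The count of ASB1 is uncertain, since 42.1% of the 50-base windows in its exons, and 26.0% of the 100-base windows, occur elsewhere in the genome. In the other 6 genes of the pathway no such window recurred. Of 4 near-identical copies of the beta subunit gene on chromosome 1, 3 had no count in any library and AT1G24807 had 2 counts in all 9. The separate gene ASB2 (AT5G57890) had 13.3, 10.7 and 13.1 CPM in JA WT, 8.14, 8.78 and 6.51 CPM in mock lhp1, and 9.63, 9.46 and 12.8 CPM in mock WT, and passed in neither comparison with mock WT (edgeR adjusted p = 0.373 for JA WT and 0.0547 for mock lhp1). ASB2 was called lower in mock lhp1 without mock WT replicate 1 (-0.51, edgeR adjusted p = 0.0492) or 2 (-0.53, edgeR adjusted p = 0.0287). Its JA WT and mock WT values overlapped. ASB1 held 82.4% ± 2.24 of the ASB1 and ASB2 RPKM sum in JA WT, 76.7% ± 2.84 in mock lhp1 and 66.8% ± 3.64 in mock WT (SD, n = 3 each). The count of ASB2 is uncertain too, as 17.6% of its 50-base exon windows occur elsewhere in the genome. These shares and the ratio of the pair are uncertain on both sides.

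PAT1, on chromosome 5 at 5957080 to 5960201 (plus strand), encodes the phosphoribosyltransferase that adds the sugar phosphate from PRPP to anthranilate. It had 136, 136 and 132 CPM in JA WT, 53.8, 48.7 and 55.2 CPM in mock lhp1, and 48.9, 53.2 and 76.7 CPM in mock WT. Mock WT replicate 3 was the high one of its group, still far below JA WT. PAT1 rose by 1.17 ± 0.14 log2 units after jasmonate (SE; edgeR adjusted p = 0.000124). Mock lhp1 and mock WT overlapped, their log2 fold change being -0.18 (edgeR adjusted p = 0.361).

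The next enzyme, phosphoribosylanthranilate isomerase, is encoded by PAI1, PAI2 and PAI3, which were set beside the 7 genes as relatives of the pathway. PAI2 (AT5G05590) had 51.5, 50.7 and 48.2 CPM in JA WT, 13.6, 12.4 and 13.5 CPM in mock lhp1, and 14.2, 15.2 and 15.5 CPM in mock WT. It rose by 1.74 ± 0.07 log2 units after jasmonate (SE; edgeR adjusted p = 2.86e-08) and did not pass in mock lhp1, at -0.19 (edgeR adjusted p = 0.0876). PAI1 (AT1G07780) had 27.5, 23.5 and 23.6 CPM in JA WT, 15.4, 16.5 and 14.5 CPM in mock lhp1, and 20.1, 17.2 and 20.03 CPM in mock WT. PAI1 did not overlap mock WT after jasmonate either, and rose by 0.38 log2 units (edgeR adjusted p = 0.0176), a call lost with total-count scaling (0.0593) and without JA WT replicate 1 (0.0923) or mock WT replicate 2 (0.0504). In mock lhp1 PAI1 was lower, at -0.31 log2 units (edgeR adjusted p = 0.0400), which was lost in 7 of the 9 edgeR fits that left out 1 library (0.0516 to 0.139). PAI3 (AT1G29410) averaged 4.72, 3.97 and 4.58 CPM in JA WT, mock lhp1 and mock WT and passed in neither comparison. Counts of PAI1 and PAI2 are uncertain, as 70.3% and 65.4% of their 50-base exon windows occur elsewhere in the genome, while 6.41% do for PAI3. PAI2 made up 69.7% ± 1.01 of the RPKM of the 3 genes in JA WT, 47.6% ± 1.88 in mock lhp1 and 46.0% ± 1.91 in mock WT (SD, n = 3 each).

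IGPS, on chromosome 2 at 1531148 to 1533737 (plus strand), encodes indole-3-glycerol phosphate synthase, which closes the indole ring. It had 144, 132 and 123 CPM in JA WT, 41.2, 40.7 and 38.9 CPM in mock lhp1, and 44.1, 40.6 and 49.8 CPM in mock WT. Jasmonate libraries lay at about 3 times the level of the other 6, which overlapped each other. IGPS rose by 1.57 ± 0.08 log2 units after jasmonate (SE; edgeR adjusted p = 2.42e-07), and mock lhp1 differed from mock WT by -0.15 (edgeR adjusted p = 0.209).

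AT5G48220, a related gene annotated with the same activity, had 32.1, 33.4 and 32.9 CPM in JA WT, 15.3, 14.5 and 15.3 CPM in mock lhp1, and 32.5, 24.0 and 32.5 CPM in mock WT. JA WT overlapped mock WT, and all mock lhp1 libraries were below both. AT5G48220 fell by 0.98 ± 0.11 log2 units in mock lhp1 (SE; edgeR adjusted p = 0.000278), the largest difference between mock lhp1 and mock WT in the 15 genes of the pathway and its relatives that were tested, and did not pass after jasmonate, at 0.14 (edgeR adjusted p = 0.404). Mock WT replicate 2, the library with the high flower marker sum, had the lowest value of mock WT, and without it the fall in mock lhp1 was 1.11. IGPS held 83.6% ± 1.23 of the RPKM of this pair in JA WT, 77.3% ± 0.891 in mock lhp1 and 65.8% ± 2.49 in mock WT (SD, n = 3 each).

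TSA1, on chromosome 3 at 20223034 to 20225523 (minus strand), encodes the alpha subunit of tryptophan synthase, which releases indole. It had 320.5, 321 and 297 CPM in JA WT, 110.4, 108 and 108 CPM in mock lhp1, and 72.4, 101 and 113 CPM in mock WT. Mock WT replicate 1 was lowest, and the mock lhp1 values fell inside the mock WT range. TSA1 rose by 1.71 ± 0.13 log2 units after jasmonate (SE; edgeR adjusted p = 3.88e-06), and differed by 0.19 in mock lhp1 (edgeR adjusted p = 0.306). INS (AT4G02610), which encodes an alpha subunit homologue that lacks the plastid targeting sequence and makes indole in the cytosol, had 9.52 to 12.8 CPM in JA WT, 10.7 to 12.6 CPM in mock lhp1 and 10.7 to 13.1 CPM in mock WT. All 3 groups overlapped for INS, with log2 fold changes of -0.06 after jasmonate and -0.03 in mock lhp1.

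TSB1, on chromosome 5 at 22264594 to 22266902 (minus strand), encodes the main beta subunit of tryptophan synthase, which joins indole to serine. It had 471, 496 and 446 CPM in JA WT, 196, 207 and 207 CPM in mock lhp1, and 188, 196 and 226.5 CPM in mock WT. The mock groups overlapped fully and shared a mean of 203 CPM. TSB1 rose by 1.21 ± 0.08 log2 units after jasmonate (SE; edgeR adjusted p = 1.30e-06) and differed by 0.0003 in mock lhp1 (edgeR adjusted p = 0.999).

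TSB2, on chromosome 4 at 13586268 to 13588897 (plus strand), encodes a second beta subunit. It had 47.8, 48.7 and 40.9 CPM in JA WT, 21.9, 24.1 and 22.7 CPM in mock lhp1, and 17.8, 18.5 and 15.5 CPM in mock WT. Both the JA WT and the mock lhp1 libraries lay above all mock WT libraries, and JA WT above mock lhp1. TSB2 rose by 1.41 ± 0.09 log2 units after jasmonate (SE; edgeR adjusted p = 1.17e-06). In mock lhp1 it was 0.41 ± 0.09 log2 units higher than in mock WT (SE; edgeR adjusted p = 0.00959), a call that held in 16 of 16 alternative settings at 0.34 to 0.56. Of all genes, 21.4% had all 3 mock lhp1 libraries above all mock WT libraries in this comparison, as TSB2 and ASB1 did.

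The other beta subunit genes passed in no comparison with mock WT. TSB4 (AT5G38530), a beta subunit of the second type, averaged 61.7 ± 5.02 CPM in JA WT, 52.8 ± 3.70 CPM in mock lhp1 and 55.7 ± 2.49 CPM in mock WT (SD, n = 3 each) (edgeR adjusted p = 0.245 for JA WT and 0.505 for mock lhp1, each against mock WT). TSB3 (AT5G28237) was nearly silent, with 13, 0 and 10 counts in JA WT, 0, 0 and 1 in mock lhp1, and 0, 0 and 2 in mock WT, and did not pass the filter on low counts. With TSB3, the 4 copies of the beta subunit gene of anthranilate synthase made up the 5 of 13 relatives that were not tested in the main fit.

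**Figure D2:**
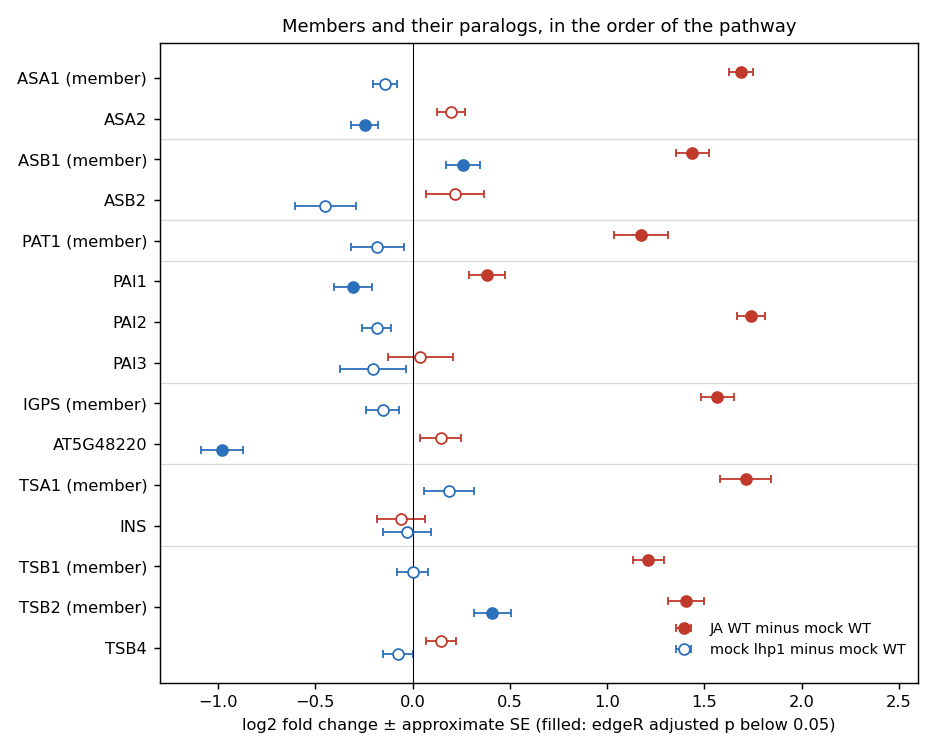
Log2 fold changes over mock WT with their standard errors are drawn for the 7 genes and the 8 tested relatives, for JA WT and for mock lhp1. The 7 genes and PAI2 lie between 1.17 and 1.74 for JA WT, and AT5G48220 is the farthest below 0 for mock lhp1, at -0.98.

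Within each pair of relatives, the log2 ratio of their counts was compared between groups with two-sided exact permutation tests, for 6 pairs in each of 2 comparisons. With 3 libraries against 3 such a test cannot give a p below 0.10, and 0.15 was the smallest value after Benjamini-Hochberg adjustment over the 12 tests. After jasmonate the ratio was higher by 1.49 log2 units for ASA1 over ASA2, 1.22 for ASB1 over ASB2, 1.36 for PAI2 over PAI1, 1.41 for IGPS over AT5G48220 and 1.80 for TSA1 over INS. In these 5 pairs all JA WT libraries lay above all mock WT libraries (exact permutation p = 0.10 each, the smallest possible, with 3 libraries per group). TSB1 over TSB2 overlapped between the groups and differed by -0.19 (exact permutation p = 0.30), a test that does not use the replicate numbers. By number, the TSB1 share of RPKM was 91.69%, 91.94% and 92.43% in JA WT, against 92.19%, 92.24% and 94.24% in mock WT. It was lower in JA WT at each of the 3 replicate numbers, which are not known to mark pairs. In mock lhp1 the ratio differed from mock WT without overlap for ASB1 over ASB2, by 0.70, for IGPS over AT5G48220, by 0.82, and for TSB1 over TSB2, by -0.41 (exact permutation p = 0.10 each). The ratios of ASA1 over ASA2, TSA1 over INS and PAI2 over PAI1 overlapped between mock lhp1 and mock WT, at 0.10, 0.24 and 0.12.

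**Figure D3:**
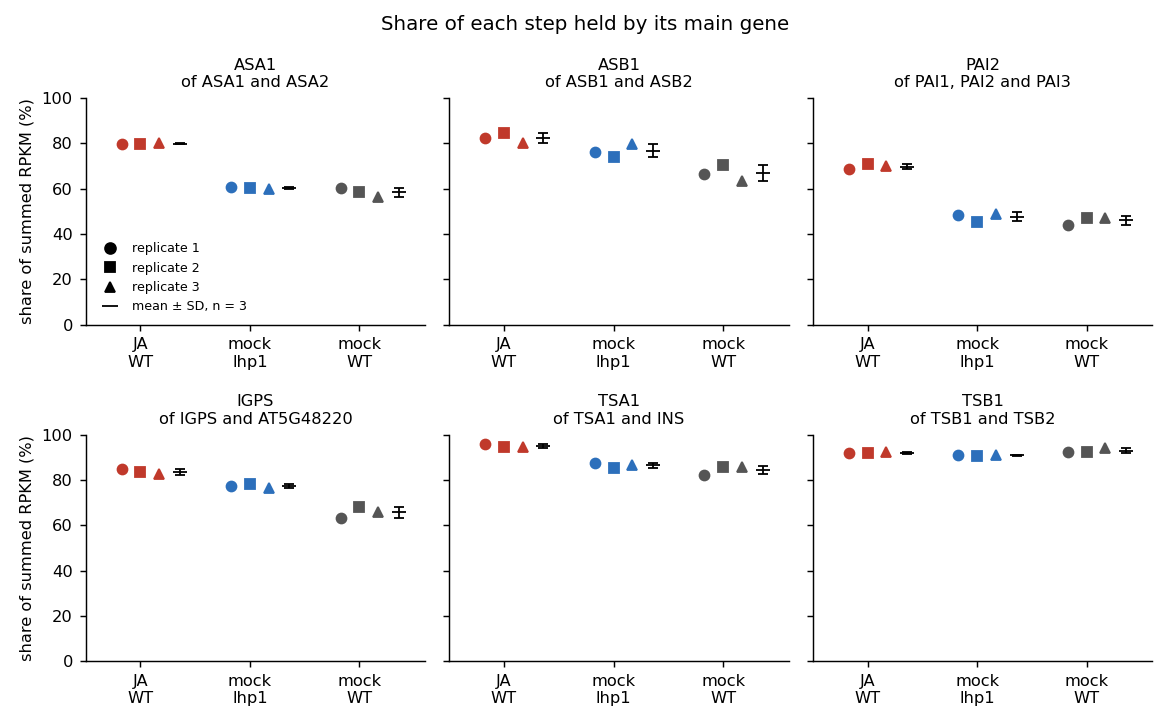
For each pair or trio of relatives the plot gives the named gene's share of their summed RPKM in percent, 1 point per library, for JA WT, mock lhp1 and mock WT. The JA WT shares lie above those of mock WT in each family but TSB1 with TSB2, where all libraries are between 90.6% and 94.2%.

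Levels of different genes were compared per exon length. In JA WT the order by mean RPKM was TSB1 at 263, TSA1 at 215, IGPS at 93.0, ASA1 at 83.4, PAT1 at 63.9, ASB1 at 48.8 and TSB2 at 22.9. In mock lhp1 it was TSB1 at 114, TSA1 at 74.65, IGPS at 28.2, PAT1 at 24.97, ASA1 at 23.4, ASB1 at 21.5 and TSB2 at 11.45 RPKM. In mock WT it was TSB1 at 114, TSA1 at 65.5, IGPS at 31.4, PAT1 at 28.3, ASA1 at 25.9, ASB1 at 17.99 and TSB2 at 8.62 RPKM. Libraries of PAT1 overlapped those of IGPS and ASA1 in mock WT and those of ASA1 in mock lhp1, so these neighbours did not differ beyond their spread. The other neighbours in each order did not overlap, IGPS and ASA1 in JA WT only narrowly. The place of ASB1 is uncertain in all 3 orders, since 42.1% of its 50-base exon windows occur elsewhere in the genome. PAT1 stood before ASA1 in both mock groups but after it in JA WT. The RPKM of TSA1 was 75.1% ± 1.89 of the sum of TSB1 and TSB2 in JA WT, 59.7% ± 2.73 in mock lhp1 and 53.2% ± 8.32 in mock WT (SD, n = 3 each). The alpha to beta ratio was above both mock groups in every JA WT library, and the mock groups overlapped.

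Set directly against mock lhp1, JA WT was higher for all 7 genes, where 25.1% of all genes were called higher (edgeR quasi-likelihood test, adjusted p below 0.05). These groups differed in both genotype and treatment, whose parts cannot be told apart in this comparison. The log2 fold changes were 1.83 ± 0.06 for ASA1, 1.18 ± 0.09 for ASB1, 1.36 ± 0.14 for PAT1 and 1.72 ± 0.09 for IGPS (SE). They were 1.52 ± 0.13 for TSA1, 1.21 ± 0.08 for TSB1 and 1.00 ± 0.09 for TSB2. The edgeR adjusted p ran from 1.51e-08 for ASA1 to 2.88e-05 for PAT1. Each comparison used the same mock lhp1 or JA WT libraries as one of those above, so the 3 sets of values are not independent.

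The 7 genes also shared their course over the libraries. Pearson's r of log2 CPM between pairs of the 7 ran from 0.857 for TSB2 with PAT1 to 0.994 for IGPS with ASA1 over the 9 libraries. These values mainly describe the gap between the 3 JA WT libraries and the other 6, and all genes share each library's scaling. Among 15550 other genes whose mean reached 5 CPM, the 6 most like the mean course of the 7 were CYP83B1 (r = 0.998), FLR1, DHS1, TAT3, AT3G51450 and NATA1 (r = 0.997 each). CYP83B1 encodes an indole glucosinolate enzyme, DHS1 the first enzyme of the shikimate pathway, TAT3 a tyrosine aminotransferase and NATA1 an acetyltransferase. TAT3 moved far more than the 7 genes, by 7.27 log2 units in JA WT over mock WT, and CYP83B1 by 1.75, so a like course is not a like size.

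Upstream, 8 of 10 shikimate pathway genes were called higher after jasmonate and none lower, with a median log2 fold change of 0.38 (edgeR). Over all genes, 8.62% were called higher and 7.07% lower, the shares against which this and the following counts after jasmonate stand. DHS1, which condenses phosphoenolpyruvate with erythrose 4-phosphate, had 644, 593 and 549.5 CPM in JA WT and 189, 196 and 197 CPM in mock WT. DHS1 rose by 1.62 ± 0.07 log2 units, like the tryptophan genes, and the others called rose by 0.54 or less, the shikimate kinase SK2 and the chorismate synthase EMB1144 by 0.54 each. DHS2 (0.05) and SK1 (-0.07) did not pass. The count of higher genes was 5 without JA WT replicate 2 and 5 with total-count scaling. In mock lhp1 DHS3 was higher (0.30), and DHS2 (-0.55) and SK2 (-0.38) were lower, of 10. Over all genes 11.1% were called higher and 14.4% lower in mock lhp1. This and the following counts in mock lhp1 stand against these shares. The call of DHS3 was lost when mock lhp1 replicate 2 was left out (edgeR adjusted p = 0.0510), and that of SK2 without mock lhp1 replicate 1 or 2 or mock WT replicate 1 or 3 (0.0504 to 0.0658). With total-count scaling 7 of the 10 were higher and 1 lower in mock lhp1.

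In the competing branch from chorismate to phenylalanine and tyrosine, 9 of 12 genes were called higher after jasmonate and none lower, with a median of 0.40 (edgeR). The chorismate mutase CM3 (0.99 ± 0.08) and the arogenate dehydratases ADT5 (0.96 ± 0.16) and ADT4 (0.84 ± 0.11) led. CM2, ADT1 and ADT2 did not pass. The count of higher genes was 7 with total-count scaling, and 7 without JA WT replicate 1 or 3 or mock WT replicate 3. In mock lhp1 ADT5 (0.79) and ADT4 (0.59) were higher and ADT1 (-0.39) and ADT2 (-0.31) lower, the last lost without mock lhp1 replicate 2 or 3 or mock WT replicate 3 (edgeR adjusted p 0.0781 to 0.0843). With total-count scaling 5 were higher and 0 lower.

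Of 11 genes that supply serine and PRPP, the co-substrates of TSB and PAT1, 5 were called higher after jasmonate and none lower, with a median of 0.16 (edgeR). They were PSAT1, a phosphoserine aminotransferase (1.38 ± 0.08), the phosphoglycerate dehydrogenases PGDH2 (0.97 ± 0.12) and PGDH1 (0.96 ± 0.06), and the PRPP synthetases PRS3 (0.84 ± 0.06) and PRS1 (0.26 ± 0.06). The call of PRS1 was lost when JA WT replicate 1 (edgeR adjusted p = 0.0780), JA WT replicate 3 (0.0711) or mock WT replicate 2 (0.0537) was left out. PSAT1 had 344, 309 and 299 CPM in JA WT, 168, 164 and 160 CPM in mock lhp1, and 114, 134 and 117 CPM in mock WT, with no overlap. In mock lhp1 4 of the 11 were higher, PGDH2 (0.66), PSAT1 (0.43), PSAT2 (0.26) and PGDH1 (0.26). Lower were PGDH3 (-0.71), PRS1 (-0.27) and PRS3 (-0.26). Over all genes 11.1% were called higher and 14.4% lower there. Leaving out 1 library gave 3 or 4 higher and 2 or 3 lower, and total-count scaling 1 lower.

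Downstream, 13 genes were listed that take tryptophan itself or act at later steps of its use, called tryptophan users here. Of these, 6 were called higher after jasmonate and TAR2 was lower, with a median of 0.16 (edgeR). All 6 belong to indole glucosinolate synthesis, where CYP79B2 and CYP79B3 take tryptophan itself and CYP83B1, SUR1, UGT74B1 and SOT16 act at later steps. CYP79B2, which turns tryptophan into indole-3-acetaldoxime, had 709, 713 and 584 CPM in JA WT, 186, 183 and 180 CPM in mock lhp1, and 150.5, 160 and 147 CPM in mock WT. CYP79B2 rose by 2.13 ± 0.08, CYP79B3 by 1.94 ± 0.08 and CYP83B1 by 1.75 ± 0.09 log2 units, and SUR1, UGT74B1 and SOT16 by 0.89 to 1.06. TAR2, an auxin synthesis aminotransferase, was lower, at -0.40 log2 units (edgeR adjusted p = 0.0128). Its relative TAA1 had 29.8, 32.5 and 34.4 CPM in JA WT, 15.2, 17.2 and 17.6 CPM in mock lhp1, and 44.4, 28.3 and 42.1 CPM in mock WT, with mock WT replicate 2 lowest. TAA1 did not pass after jasmonate (-0.24, edgeR adjusted p = 0.292) and was called lower without mock WT replicate 2 (-0.42, edgeR adjusted p = 0.00671).

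In mock lhp1 2 of the 13 tryptophan users were called higher and 2 lower, against 11.1% and 14.4% of all genes. TAA1 fell by 1.20 ± 0.15 log2 units (edgeR adjusted p = 0.000422) and the tryptophanyl-tRNA synthetase OVA4 by 0.47 ± 0.09, while CYP79B3 (0.32) and CYP79B2 (0.26) were higher. The number called higher was 0 without mock lhp1 replicate 1 or 2, 1 without mock lhp1 replicate 3 or mock WT replicate 1 or 3, and 6 without mock WT replicate 2 or with total-count scaling. The camalexin gene PAD3 averaged 4.52 CPM in JA WT, 6.86 CPM in mock lhp1 and 4.001 CPM in mock WT, and the lower CYP71A12 and CYP71A13 averaged 0.488 and 0.140 CPM in JA WT, 1.23 and 0.804 CPM in mock lhp1, and 0.599 and 0.304 CPM in mock WT. None of the 3 passed in a comparison with mock WT, their log2 fold changes in mock lhp1 being 0.77 for PAD3, 1.02 for CYP71A12 and 1.36 for CYP71A13. Without mock WT replicate 2 all 3 were called higher in mock lhp1, at 1.02 for PAD3, 1.505 for CYP71A12 and 2.98 for CYP71A13 (edgeR adjusted p 0.0115 to 0.0426). CYP71A12 was called lower in JA WT than in mock lhp1, at -1.32 log2 units (edgeR adjusted p = 0.0413), a call lost without JA WT replicate 2 or 3 or mock lhp1 replicate 1 or 3 (0.0973 to 0.174).

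**Figure D4:**
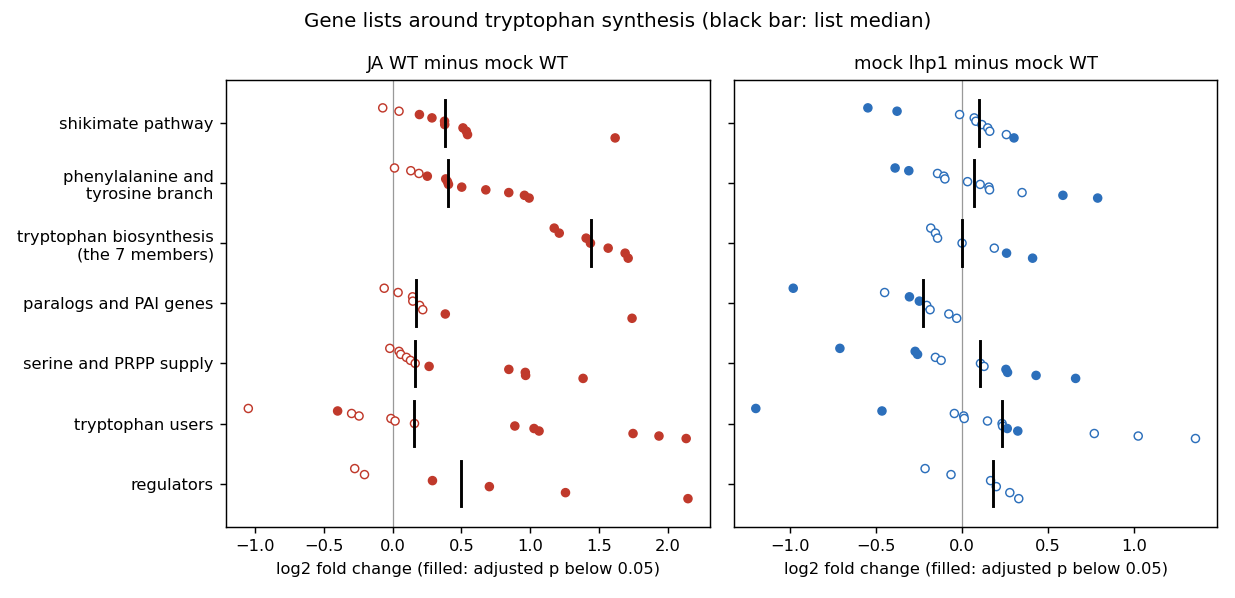
Each point is 1 tested gene, placed by its log2 fold change over mock WT within its gene list, for JA WT and for mock lhp1, with a line at each list's median. The 7 tryptophan genes lie between 1.17 and 1.71 for JA WT, and each other list has a median of 0.50 or less there.

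Among 7 regulators, 6 passed the filter on low counts and 4 were called higher after jasmonate (edgeR). MYC2 had 129, 132 and 124 CPM in JA WT, 39.0, 35.6 and 34.6 CPM in mock lhp1, and 31.2, 33.2 and 22.5 CPM in mock WT, and rose by 2.15 ± 0.12 log2 units. MYB122 rose by 1.26 ± 0.18 and MYB34 by 0.70 ± 0.11, both activators of indole glucosinolate genes, of which MYB34 is also known from a mutant with altered tryptophan gene regulation. MYC3 rose by 0.29 (edgeR adjusted p = 0.0214), a call lost in 5 of the 9 edgeR fits that left out 1 library (0.0572 to 0.0839) and in the fit of the JA WT and mock WT libraries with the replicate number as a block (0.0505). MYB51 (-0.28) and MYC4 (-0.20) did not pass, and MYB51 was called lower without JA WT replicate 3 (-0.43, edgeR adjusted p = 0.0417). ERF109, not tested in the main fit, had 9, 5 and 8 counts in JA WT, 3, 1 and 4 in mock lhp1, and 0, 0 and 3 in mock WT. Without the filter on low counts 5 regulators were called higher after jasmonate, against 4 in the main fit, ERF109 being the gene added. In mock lhp1 edgeR called 0 of the 6 at an adjusted p below 0.05, 3 had an unadjusted p below 0.05, DESeq2 called 1 and limma voom 0. Without mock WT replicate 1 the count was 1, and without replicate 2 it was 2, and with total-count scaling it was 4.

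4 of the 7 genes overlap a counted gene on the other strand, and whether counting used the strand is not stated in the labels. The partner of ASA1, AT5G05720, had no counts, and that of PAT1, AT5G18000, averaged 0.077 CPM in JA WT and 0.599 CPM in mock WT. The partner of ASB1, AT1G25211, averaged 6.83 CPM in JA WT and 6.02 CPM in mock WT. The partner of IGPS, AT2G04410, averaged 49.4 CPM in JA WT, 50.03 CPM in mock lhp1 and 54.0 CPM in mock WT, and did not pass after jasmonate (-0.13, edgeR adjusted p = 0.195). TSA1, TSB1 and TSB2 overlap no other gene.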

How the data were processed

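The authors deposited whole-number read counts per gene, not normalized, for 33602 genes. They used TopHat and HTSeq with the TAIR10 build, and edgeR, per the submitters' processing notes. Versions, strand use and the treatment of reads with several matches are not given in the sources used here. Another 3 count columns matched no sample label and were not used here.

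Counts of the 9 libraries were fitted together with a mean per group in edgeR 4.0.16 (R 4.3.3): filterByExpr, TMM, glmQLFit, two-sided glmQLFTest, and Benjamini-Hochberg adjustment over 20986 genes, called at an adjusted p below 0.05. Standard errors are approximate, from the log2 fold change and the quasi-likelihood F (their ratio after taking the root of F). RPKM is TMM-scaled CPM per kilobase of merged RefSeq exons (TAIR10.1). Ratios of relatives used a pseudocount of 0.5 and exact permutation tests (scipy 1.17.1). Correlations used log2 CPM with a prior count of 2. The sequence of 1 promoter window is not reported here. The procedure was tested on simulated data. Library totals ran from 18081553 to 31454984 counts, the biological coefficient of variation was 0.1065 (square root of the common dispersion), and chi-square per degree of freedom between replicates was 2.47 to 37.9, so none were duplicates. The main edgeR p-values set a difference between groups against a spread estimated from these 9 libraries together.

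The 7 genes, the lists and the tests were chosen with earlier results of these data known. Named were the 7 genes, their relatives with counts, the regulators, LHP1, JAZ10 and VSP2, the 3 largest called changes of each other list, all called genes where 5 or fewer were called, and the 6 genes of the most similar course. TAA1 after jasmonate, the camalexin genes, SUR1, UGT74B1, SOT16 and uncalled list members were named after their values were seen.

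Whether the replicate numbers from the titles pair JA WT with mock WT was not settled. Deviations of same-numbered libraries correlated at r = 0.332, 0.126 and 0.200, and those of differently numbered libraries were not compared. For mock lhp1 and mock WT the same values were r = -0.118, 0.0137 and 0.0978. The main fit and the permutation tests used no pairing. Alternatives were DESeq2 1.42.0, limma voom 3.58.1, DESeq2 size factors, total-count scaling, no filter, the groups of a comparison alone, a replicate block, and each library left out. Figures were drawn with matplotlib 3.10.9.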

Additional observations from a re-analysis of the deposited data

How the results depend on the processing

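All 7 genes stayed higher in JA WT than in mock WT in 17 of 17 alternative settings and higher than in mock lhp1 in 16 of 16. Total-count scaling without TMM moved the median of all genes by -0.12 (JA WT over mock WT), 0.15 (mock lhp1 over mock WT) and -0.27 (JA WT over mock lhp1), and other changes are read relative to that. Under it the summed level of the 7 genes was 1241 CPM in JA WT and 565.4 CPM in mock lhp1, and the uncalled log2 fold change of ASA1 in mock lhp1 was 0.0055. JA WT over mock lhp1 then turned negative for TSB4 (-0.0456), DQS (-0.0392), TYRA1 (-0.0427), PSP (-0.0179), PRS5 (-0.0552) and AT3G04600 (-0.21). With this scaling 3034 genes were lower after jasmonate, against 1483 with TMM, and 934 when only those groups were fitted. In mock lhp1 it gave 5045 higher and 1878 lower genes, against 2321 and 3023, and in JA WT over mock lhp1 2515 higher and 9229 lower, against 5270 and 4259. Its split of higher against lower calls in the lists was 1 higher relative after jasmonate and 1 lower one in mock lhp1, 5 higher shikimate genes after jasmonate and 7 higher with 1 lower in mock lhp1, 5 higher and 0 lower phenylalanine and tyrosine genes in mock lhp1, 1 lower serine and PRPP gene, 6 higher tryptophan users and 4 higher regulators in mock lhp1, and 1 lower regulator after jasmonate.

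In mock lhp1 1 of the 7 genes, in place of 2, was higher with limma voom, without the filter, and with the fitted groups alone. With the replicate number as a block the count was also 1, ASB1 having an edgeR adjusted p of 0.064, and the block gave 4 higher tryptophan users and 2 higher regulators. The blocks changed no call of the 7 genes after jasmonate. Fitted to JA WT and mock WT alone, the block gave 7 shikimate, 8 phenylalanine and tyrosine and 3 regulator genes higher after jasmonate. The main fit gave 8, 9 and 4. DESeq2, DESeq2 size factors and limma voom each gave 4 higher tryptophan users in mock lhp1, and DESeq2 1 higher regulator. Leaving out 1 library gave 1 to 2 of the 7 genes higher in mock lhp1 and 1108 to 3295 genes higher over the table. For mock lhp1 it gave 1 to 4 lower relatives, 0 to 1 higher and 1 to 2 lower shikimate genes, 1 to 2 lower phenylalanine and tyrosine genes, 0 to 6 higher tryptophan users and 0 to 2 higher regulators. After jasmonate it gave 1 to 3 higher relatives, 5 to 8 higher shikimate genes and 7 to 9 higher phenylalanine and tyrosine genes. It also gave 1 to 2 lower tryptophan users and 0 to 1 lower regulators there. The cause of these changes was not tested. Exact tests of 3 against 3 libraries cannot pass a threshold of 0.05, and TSB3 and ERF109 had too few counts to enter the main fit.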
